A study of Homo sapiens with 24 samples.

Results

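The B cell receptor signals through a set of surface proteins and cytoplasmic enzymes, and 34 of these genes were chosen by name: the CD79A and CD79B signal chains, coreceptors and other B cell surface proteins, kinases and lipid kinase subunits, adaptors, exchange factors, a phospholipase and phosphatases. Of the 34, 33 had a probe set that is assigned to a single gene, out of 19775 such genes in all, and PIK3AP1 was not analysed here. Where a gene had several probe sets, the brightest by its average over the 24 arrays was read. The genes were chosen by function and not by their values, although results of these data were already known when the list was drawn up.

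The cells were KARPAS-422, an established human line of diffuse large B cell lymphoma whose labelled genotype is EZH2 Y641N, an altered form of the histone methyltransferase EZH2. They received the solvent DMSO or an EZH2 inhibitor at 5 uM, and RNA was taken at days 1, 2, 3 and 6. These 8 groups had 3 biological replicates each, and every group carried the same genotype, so one line stands for the lymphoma here. Values are log2 expression from 24 arrays, and a difference is the inhibitor group minus the DMSO group of the same day. A gene was called when its limma p, adjusted over all 19775 genes by Benjamini-Hochberg, was under 0.05. Each group rests on 3 arrays, which limits the precision, and errors of differences are standard errors of the fit (SE, n = 3 a group).

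When antigen binds the receptor, SRC-family kinases such as LYN phosphorylate the CD79A and CD79B tails, and SYK docks there. SYK, BTK and the adaptor BLNK then activate phospholipase C gamma 2, whose products raise calcium and activate protein kinase C beta, which feeds the BCL10 and MALT1 complex of the NF-kB pathway. Coreceptors set the threshold: CD81 and CR2 lower it, while CD22, CD72 and FCGR2B recruit the phosphatases SHP-1 (PTPN6) and SHIP-1 (INPP5D), which oppose the signal.

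The sequences just upstream of 5 members are shown because these genes differ most or stand at the entry of the pathway: CD72, PRKCB and BANK1 had the highest day 6 differences among members with an entry, SYK is the kinase that binds the receptor, and PTPN6 had the lowest difference. Each run holds the 250 bases before a transcription start listed by RefSeq on GRCh38.p14, 5′ to 3′ on the strand of the gene. Capitals mark a match to 1 of 3 motifs searched on both strands, the octamer ATGCAAAT, the PU.1-type letters GAGGAAGT and the EBF-type letters, TCCC and GGGA with any 2 bases between. CD72 lies on the minus strand at chr9:35618414-35618663, and the other 4 lie on the plus strand: PRKCB at chr16:23835733-23835982, BANK1 at chr4:101790480-101790729, SYK at chr9:90801350-90801599 and PTPN6 at chr12:6946327-6946576.
CD72: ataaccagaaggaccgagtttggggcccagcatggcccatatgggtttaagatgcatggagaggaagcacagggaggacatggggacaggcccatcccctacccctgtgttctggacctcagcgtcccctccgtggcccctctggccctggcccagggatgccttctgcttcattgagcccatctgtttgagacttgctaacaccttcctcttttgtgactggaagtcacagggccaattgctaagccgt
PRKCB: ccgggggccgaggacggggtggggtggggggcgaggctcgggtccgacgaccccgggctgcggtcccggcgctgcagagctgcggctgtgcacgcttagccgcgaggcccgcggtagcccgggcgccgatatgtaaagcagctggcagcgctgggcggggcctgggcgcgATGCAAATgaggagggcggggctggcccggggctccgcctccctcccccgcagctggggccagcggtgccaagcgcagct
BANK1: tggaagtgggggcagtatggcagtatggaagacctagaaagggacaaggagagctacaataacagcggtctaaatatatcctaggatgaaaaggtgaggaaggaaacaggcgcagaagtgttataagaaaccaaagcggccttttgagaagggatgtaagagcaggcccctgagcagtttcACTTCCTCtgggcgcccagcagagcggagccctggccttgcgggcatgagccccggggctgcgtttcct
SYK: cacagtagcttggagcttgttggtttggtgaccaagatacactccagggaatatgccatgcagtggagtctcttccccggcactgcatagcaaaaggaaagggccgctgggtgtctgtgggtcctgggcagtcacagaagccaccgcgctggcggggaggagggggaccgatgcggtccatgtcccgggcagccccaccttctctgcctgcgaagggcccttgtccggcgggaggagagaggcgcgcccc
PTPN6: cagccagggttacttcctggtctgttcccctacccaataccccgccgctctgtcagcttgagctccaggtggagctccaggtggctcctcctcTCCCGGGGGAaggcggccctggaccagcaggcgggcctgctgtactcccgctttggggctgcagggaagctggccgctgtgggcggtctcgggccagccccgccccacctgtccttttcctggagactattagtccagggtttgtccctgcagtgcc

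The PRKCB stretch held the octamer and was the only CpG-rich one of the 5, with 30 CpG pairs and 77.2% G or C, whereas the CD72 stretch held 4 CpG pairs. BANK1 held the PU.1-type letters on the reverse strand, and PTPN6 held the EBF-type letters. No motif of the 3 was found in the printed CD72 and SYK windows. Among all 35116 RefSeq windows of this length, 1.63% held the octamer, 2.17% the PU.1-type letters and 1.06% the EBF-type letters. The measured members had 41 windows from 26 genes, and the 1 window of PIK3AP1 was not counted among them. The PU.1-type letters were in 6 windows of 6 genes, BANK1, BTK, CD53, INPP5D, SYK and VAV1, of which SYK's was at another start than the one printed. The octamer was in 1 window each of PRKCB and CD53. Some genes list several starts, so windows of a gene can share sequence, and a match is a description of letters only. Windows with at least 50% G or C and an observed over expected CpG ratio of at least 0.6 made up 34.1% of the member windows and 45.0% of all windows.

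At day 6 the inhibitor-treated cells held more RNA of 18 of the 33 genes and less of 3 than the DMSO cells. PRKCB, protein kinase C beta, was 4.86-fold higher. CD72, a coreceptor that inhibits B cell receptor signalling, read 5.90-fold higher, from a DMSO level in the dim range of the array, so the size of that fold is uncertain. CD79B, the scaffold BANK1, SYK, BLNK, LYN and the phosphatase gene INPP5D were higher as well, by 1.57- to 2.14-fold. PTPN6, the phosphatase SHP-1, was 2.00-fold lower and PIK3CD, a catalytic PI3 kinase subunit, 1.49-fold lower. The day 6 calls took in 45.4% of all genes, with 18.5% up and 26.9% down, beside 63.6% of the members, 54.5% higher and 9.09% lower. The median difference was 0.37 over the members and -0.11 over all genes. In whole-culture RNA, fewer cells with a transcript and less RNA per cell cannot be told apart.

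Because many members are well above the dim range of the array, the background was also taken over genes above the dimmest 40%. That background was 60.1% at day 6, made of 26.3% higher and 33.8% lower. Of the 31 members above that level, 17 were called higher and 3 lower. CD72 and CR2 were the members in the dimmest 40%. The 2-fold mark was passed upward by 4 called members, CD72, PRKCB, CD79B and BANK1, and downward by PTPN6, where 5.12% of all genes passed it upward and 2.43% downward.

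The change came late for most of the genes. At day 1 no member was called by limma, while 0.485% of all genes were (0.475% higher, 0.0101% lower), and 1 member, PRKCB, had an unadjusted p under 0.05. At day 2 PRKCB was called, 1 of 33 where 4.39% of all genes were called, 3.57% higher and 0.824% lower. At day 3, when 16.3% of all genes were called (8.64% higher, 7.65% lower), 5 members were: PRKCB and PIK3R1 were higher, and PTPN6, PIK3CD and BLK were lower. Over the 4 days, 18 members were called at exactly 1 day, 3 at 2 days, 1 (PRKCB) at 3 days and 11 at none. The 3 called at 2 days were PIK3R1, PIK3CD and PTPN6. Of all genes, 47.1% were called at 1 or more days and 15.3% at 2 or more.

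**Figure D1:**
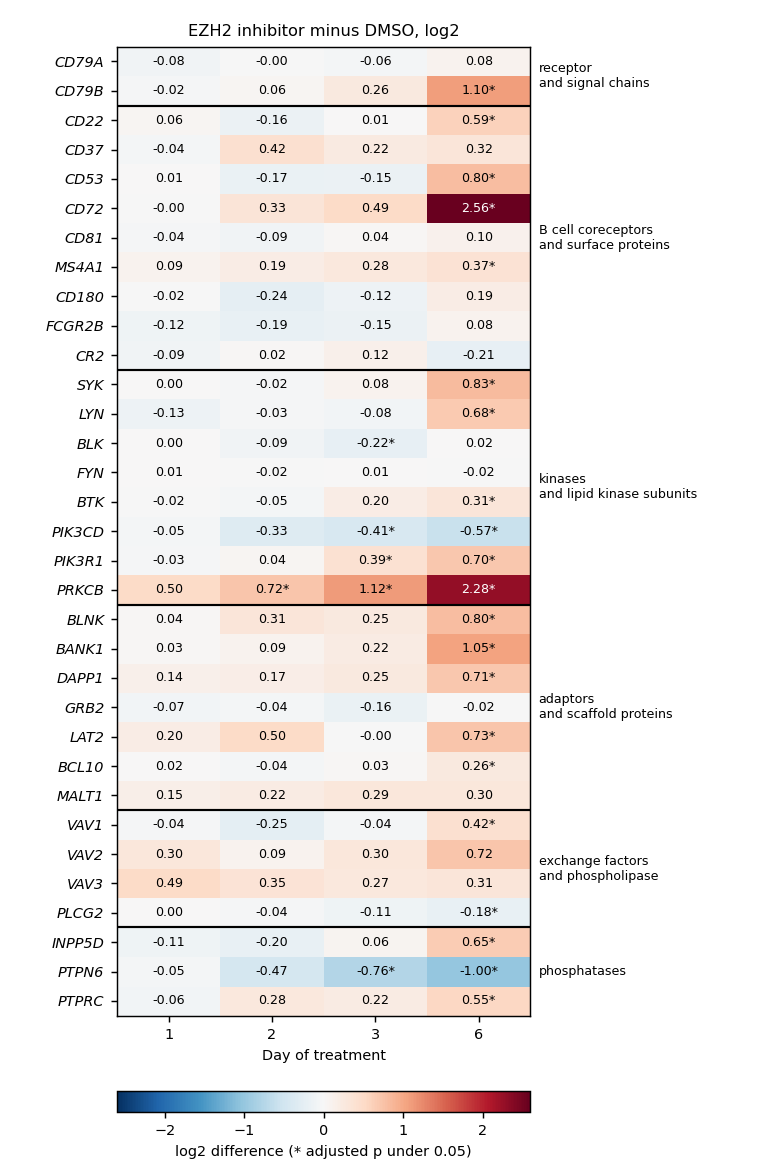
Log2 difference, EZH2 inhibitor minus DMSO, for the 33 measured genes (rows, grouped by role) at days 1, 2, 3 and 6 (columns), with 3 arrays a group. A star marks a limma adjusted p under 0.05, and 21 stars stand in the day 6 column against 5 at day 3, 1 at day 2 and 0 at day 1.

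Whether the arrays of the groups overlapped can be read without a model. At day 6 all 3 inhibitor arrays lay above all 3 DMSO arrays for 20 members and below for 3, while groups of all genes did not overlap for 52.2% (19.8% above, 32.3% below). The 20 were the 18 called genes with CD81 and VAV2. At day 1 the counts were 2 above (PRKCB and VAV3) and 1 below (FCGR2B), near the 10.7% of all genes without overlap (5.35% above, 5.33% below). At day 2 they were 5 above and 7 below against 22.8% of all genes (9.34% above, 13.4% below). At day 3 they were 6 above and 5 below against 30.8% (13.3% above, 17.5% below). An exact permutation test of 3 arrays against 3 cannot go below p = 0.1.

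The replicate numbers in the labels pair the arrays at days 1, 3 and 6, where same-numbered DMSO and inhibitor arrays deviated together. With the replicate number as a block, 2 members were called at day 1 where 1.23% of all genes were higher with the same block, PRKCB at 0.50 (limma adjusted p = 0.0078) and VAV3 at 0.49 (limma adjusted p = 0.031). At day 3 the block added BANK1 at 0.22 (limma adjusted p = 0.0093) and MALT1 at 0.29 (limma adjusted p = 0.025) to the higher genes, 4 of 33 where the block gave 11.3% of all genes. At day 6 it added CD37, MALT1, VAV2 and VAV3, which raised the count of higher members from 18 to 22, beside 20.3% of all genes higher with the block and 18.5% without it. For CD37 this holds for the brightest probe set, while its other probe set was called lower in the fit without the block.

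The signal chains gave different readings. CD79B and CD79A form the dimer that carries the receptor's signal into the cell. At day 6 CD79B read 10.34, 10.56 and 10.61 in DMSO and 11.30, 11.73 and 11.77 with the inhibitor. No inhibitor array fell as low as any DMSO array, and the difference was 1.10 ± 0.11 (SE, limma adjusted p = 4.6e-08). At days 1, 2 and 3 its difference was -0.02, 0.06 and 0.26, none of them called with all arrays and no block. The CD79B arrays of the 2 groups did not overlap at day 3 either. That day's difference was called with the replicate block within each day (limma adjusted p = 0.016). It was also called without the arrays numbered 1 (0.34, limma adjusted p = 0.043). CD79A read 9.19, 9.08 and 9.25 in DMSO and 9.17, 9.27 and 9.32 with the inhibitor at day 6. Those groups overlapped, and the difference was 0.08, with a 95% interval from -0.12 to 0.29. The difference between the chains was not tested. The 2 other CD79B probe sets were dim, at means of 5.05 and 5.00 over the arrays, and read -0.19 and 0.003 at day 6, neither of them called, so the CD79B call rests on 1 probe set.

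Of the 9 coreceptors and surface proteins, 4 were higher at day 6 and none lower, 44.4% called beside 45.4% of all genes. CD72 was near the floor of the array in DMSO at day 6, at 4.32, 3.60 and 3.80, and read 6.21, 6.48 and 6.71 with the inhibitor. All DMSO arrays and all inhibitor arrays before day 6 lay below 5.14, the level under which the dimmest 40% of genes fall. The difference was 2.56 ± 0.24 (SE, limma adjusted p = 9.0e-09), and low values compress a fold on an array. It was 0.33 at day 2 and 0.49 at day 3, not called.

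CD53, a tetraspanin of leukocytes, read 10.17, 10.02 and 10.06 in DMSO and 10.65, 11.10 and 10.90 with the inhibitor, a difference of 0.80 ± 0.13 (SE, limma adjusted p = 2.8e-05). It was the one member called within the DMSO arm, higher at day 6 than at day 1 by 0.75 (limma adjusted p = 0.0081), where 0.288% of all genes were called, 0.238% higher and 0.0506% lower. It was not called without the arrays numbered 1, 2 or 3 (limma adjusted p = 0.052, 0.071 and 0.33).

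CD22, a sialic acid-binding inhibitory receptor, read 8.77, 8.60 and 8.31 in DMSO and 9.11, 9.30 and 9.05 with the inhibitor, a difference of 0.59 ± 0.18 (SE, limma adjusted p = 0.0088). Its call was lost without DMSO replicate 3 (0.47, limma adjusted p = 0.057). MS4A1, which encodes CD20, read 12.85, 12.55 and 12.71 in DMSO and 13.29, 12.997 and 12.94 with the inhibitor. The groups lay close to each other without overlap, and the difference of 0.37 ± 0.11 (SE, limma adjusted p = 0.0069) lost its call without inhibitor replicate 1 (0.27, limma adjusted p = 0.059) and without the arrays numbered 2 (0.34, limma adjusted p = 0.094).

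The other 5 surface genes were not called at any day. The tetraspanin CD37 was 0.32 higher at day 6 (limma adjusted p = 0.069), or 0.018 with the replicate block, and its paired differences were 0.26, 0.34 and 0.36. The other CD37 probe set was called lower at day 6, so the direction for this gene is uncertain. CD81, a tetraspanin coreceptor, differed by 0.10, or by 0.19 with the median shift over all genes removed from each array (limma adjusted p = 0.011) and by 0.16 after a second quantile normalization (limma adjusted p = 0.039), both called. The toll-like CD180 differed by 0.19 and the Fc receptor FCGR2B by 0.08. The FCGR2B probe set may also read the near-identical FCGR2A and FCGR2C, so its value is uncertain. CR2, the complement receptor, reached at most 3.26 on the 24 arrays and differed by -0.21.

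**Figure D2:**
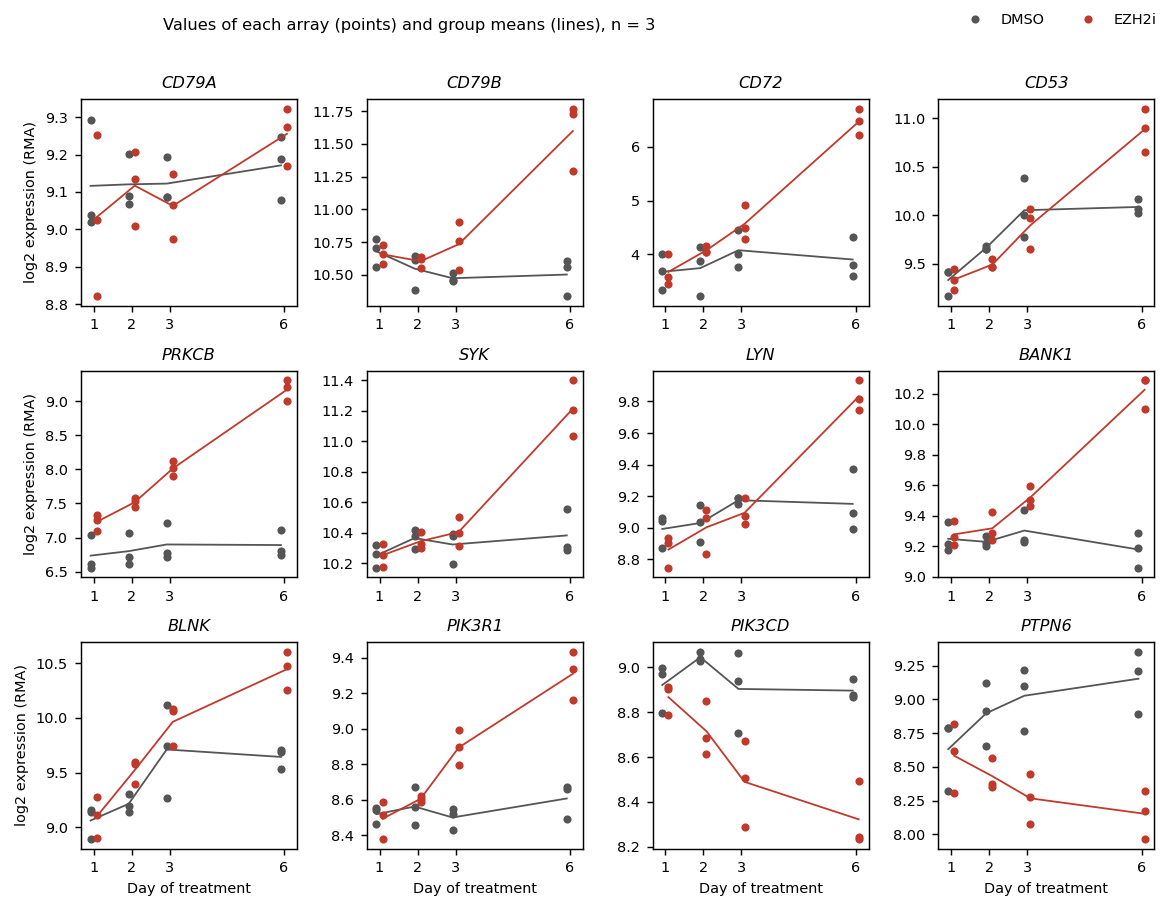
Log2 expression of 12 members on each of the 24 arrays (points, n = 3 a group) and the group means (lines) against the day of treatment, with DMSO in grey and the EZH2 inhibitor in red. PRKCB separates from day 1 on, CD79B, CD72, SYK, LYN and BANK1 separate clearly at day 6, PTPN6 and PIK3CD go below DMSO, and CD79A overlaps at each day.

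Of the 8 kinases and lipid kinase subunits, 5 were higher at day 6 and 1 lower. That was 75% called, beside 45.4% of all genes and 60.1% of those above the dim level. In the fit of the brightest probe sets without the block PRKCB was the first member called, and its difference was greater at each later day. Its DMSO arrays read 6.56, 6.61 and 7.04 at day 1 and 6.74, 6.81 and 7.12 at day 6. The inhibitor arrays read 7.10, 7.26 and 7.33 at day 1, 7.53, 7.45 and 7.58 at day 2, 7.90, 8.02 and 8.12 at day 3 and 8.999, 9.31 and 9.20 at day 6. The difference was 0.50 at day 1, 0.72 at day 2 (limma adjusted p = 0.0037), 1.12 at day 3 (limma adjusted p = 1.0e-05) and 2.28 ± 0.15 at day 6 (SE, limma adjusted p = 3.4e-11). The day 2 call was lost without the arrays numbered 1 or 2. It was also lost with the mean of the gene's probe sets (0.32, limma adjusted p = 0.076). With plain probe sets preferred the day 2 difference was 0.30 (limma adjusted p = 0.28), so the timing of the PRKCB call depends on the probe set. The arrays numbered 3 read highest among the DMSO arrays of each day.

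SYK, the kinase bound to the phosphorylated chains, read 10.31, 10.56 and 10.28 in DMSO and 11.04, 11.40 and 11.20 with the inhibitor at day 6. All inhibitor arrays were above all DMSO arrays, with a difference of 0.83 ± 0.09 (SE, limma adjusted p = 1.5e-07), after 0.08 at day 3. Its 3 other probe sets read higher differences at day 6, 1.38, 1.49 and 1.60. With plain probe sets preferred, SYK was already called at day 3, at 0.35 (limma adjusted p = 0.036), so its timing depends on the probe set. LYN read 9.37, 8.99 and 9.09 in DMSO and 9.94, 9.82 and 9.74 with the inhibitor, a difference of 0.68 ± 0.10 (SE, limma adjusted p = 5.0e-06), after -0.08 at day 3. Its 2 other probe sets, 0.67 and 0.79, read much the same.

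PIK3R1, the regulatory subunit of PI3 kinase, and PIK3CD, the catalytic subunit it binds, went opposite ways. PIK3R1 read 8.66, 8.49 and 8.67 in DMSO and 9.33, 9.16 and 9.43 with the inhibitor at day 6, 0.70 ± 0.08 (SE, limma adjusted p = 3.2e-07), and was already 0.39 at day 3 (limma adjusted p = 0.0016). PIK3CD read 8.88, 8.87 and 8.95 in DMSO and 8.24, 8.23 and 8.49 with the inhibitor, -0.57 ± 0.10 (SE, limma adjusted p = 7.2e-05). Its differences were -0.33 at day 2, not called but called with array weights (limma adjusted p = 0.035), without dim genes (limma adjusted p = 0.046) and with the block, and -0.41 at day 3 (limma adjusted p = 0.0059), a call lost without inhibitor replicate 2 (-0.31, limma adjusted p = 0.057) and without the arrays numbered 1 (-0.34, limma adjusted p = 0.15).

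BTK, which SYK activates, was 0.31 ± 0.09 higher (SE, limma adjusted p = 0.0091), from 9.90, 9.91 and 9.84 in DMSO to 10.38, 10.17 and 10.02. That call was lost without inhibitor replicate 1 (0.21, limma adjusted p = 0.075). The SRC-family kinases BLK and FYN were not called at day 6, at 0.02 and -0.02, with intervals of the fit from -0.11 to 0.15 and from -0.17 to 0.14. BLK had been called lower at day 3, at -0.22 (limma adjusted p = 0.0199), which leaving out DMSO replicate 1 or 3, or inhibitor replicate 1 or 2, ended (limma adjusted p from 0.054 to 0.070).

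**Figure D3:**
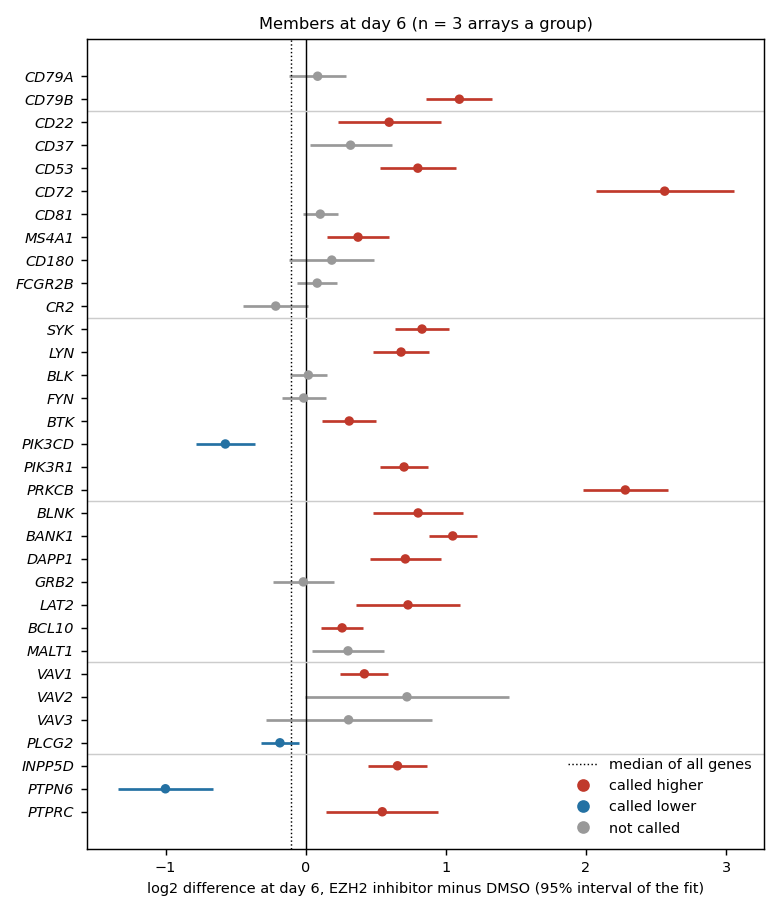
Log2 difference at day 6 for each of the 33 genes (points) with the 95% interval of the fit (lines), grouped by role, with 3 arrays a group. CD72 and PRKCB lie above 2, PTPN6 lies at -1.002, and the dotted line shows the all-gene median of -0.11.

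Of the 7 adaptors and scaffold proteins, 5 were higher at day 6. That was 71.4% called, beside 45.4% of all genes and 60.1% of those above the dim level. BANK1, a B cell scaffold that links the receptor to LYN, read 9.19, 9.06 and 9.29 in DMSO and 10.29, 10.10 and 10.29 with the inhibitor, so the groups were far apart, and the difference was 1.05 ± 0.08 (SE, limma adjusted p = 7.2e-10). BLNK, the adaptor that links SYK to phospholipase C, read 9.69, 9.71 and 9.53 and 10.61, 10.48 and 10.25, a difference of 0.80 ± 0.15 (SE, limma adjusted p = 0.00018). In the DMSO arm BLNK was 0.58 higher at day 6 than at day 1, not called without the block and called with it (limma adjusted p = 0.031).

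DAPP1, an adaptor that binds PI3 kinase products, read 8.39, 8.34 and 8.17 in DMSO and 9.09, 9.08 and 8.86 with the inhibitor, 0.71 ± 0.12 (SE, limma adjusted p = 5.3e-05). Its brightest probe set is of a kind that can match other genes, and its 3 other probe sets were higher too, by 0.56 to 1.13. LAT2, a membrane adaptor, read 5.44, 5.61 and 4.93 in DMSO and 5.93, 6.22 and 6.01 with the inhibitor, 0.73 ± 0.18 (SE, limma adjusted p = 0.0021). The second LAT2 probe set went the other way, at -0.38 (limma adjusted p = 0.020), and the mean of both was 0.17, not called. BCL10 differed by 0.26 (limma adjusted p = 0.0057), a call lost without the arrays numbered 3 (0.19, limma adjusted p = 0.13), and its partner MALT1 by 0.30 (limma adjusted p = 0.0502), called with the replicate block (limma adjusted p = 0.0084). GRB2, the adaptor that recruits SOS, differed by -0.02 on its brightest probe set and by 0.51 (limma adjusted p = 0.00020) on another.

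Among the VAV exchange factors, which activate RAC, VAV1 was higher at day 6. It read 8.83, 8.77 and 8.83 in DMSO and 9.27, 9.25 and 9.18 with the inhibitor, 0.42 ± 0.08 (SE, limma adjusted p = 0.00026). VAV2 read 7.09, 7.40 and 6.44 in DMSO and 7.81, 7.82 and 7.47 with the inhibitor. The arrays numbered 3 read lowest in all 8 groups for VAV2, VAV3 and PTPN6. For VAV2 the difference of 0.72 ± 0.35 was not called (SE, limma adjusted p = 0.099), whereas the block on the number called it (limma adjusted p = 0.0010). Its 2 other probe sets read -0.04 and -0.09. VAV3 differed by 0.31 (limma adjusted p = 0.398, or 0.030 with the block). PLCG2, the phospholipase, was -0.18 (limma adjusted p = 0.023), its arrays being 12.19, 12.31 and 12.18 in DMSO and 11.98, 12.10 and 12.05 with the inhibitor. Once the median shift over all genes was removed from each array, the PLCG2 call was lost (-0.09, limma adjusted p = 0.26), as it was without DMSO replicate 2 or inhibitor replicate 1 (limma adjusted p = 0.11 and 0.089).

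The 3 phosphatases were all called at day 6, in both directions, where 45.4% of all genes and 60.1% of those above the dim level were called. PTPN6 in DMSO read 8.79, 8.79 and 8.32 at day 1 and 9.36, 9.21 and 8.89 at day 6, and with the inhibitor 8.62, 8.82 and 8.31 at day 1 and 8.17, 8.32 and 7.96 at day 6. The DMSO arrays read higher at day 6 than at day 1 and the inhibitor arrays lower. The day 2 difference of -0.47 was not called, although all 3 differences between same-numbered arrays were negative (-0.34, -0.75 and -0.31) and array weights called it (-0.55, limma adjusted p = 0.023). The difference was -0.76 at day 3 (limma adjusted p = 0.00202) and -1.002 ± 0.16 at day 6 (SE, limma adjusted p = 2.8e-05). The day 3 call was lost without the arrays numbered 2 (-0.67, limma adjusted p = 0.080). Within the inhibitor arm PTPN6 was 0.43 lower at day 6 than at day 1 and called. That call was lost without the arrays numbered 1 (-0.42, limma adjusted p = 0.18) or 2 (-0.40, limma adjusted p = 0.18). Within the DMSO arm PTPN6 was 0.52 higher at day 6, not called without the block and called with it (limma adjusted p = 0.0036).

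INPP5D, the lipid phosphatase SHIP-1, read 9.12, 9.03 and 9.07 in DMSO and 9.66, 9.80 and 9.71 with the inhibitor, 0.65 ± 0.10 (SE, limma adjusted p = 1.3e-05). PTPRC, which encodes CD45, the phosphatase that activates SRC-family kinases, read 11.69, 11.28 and 11.32 in DMSO and 11.93, 12.19 and 11.82 with the inhibitor, 0.55 ± 0.19 (SE, limma adjusted p = 0.025). Its call was lost without DMSO replicate 2 or 3 or inhibitor replicate 2 (limma adjusted p = 0.093, 0.079 and 0.10), although the next 2 probe sets of PTPRC by level were called at 0.52 and 0.43.

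The 11 receptor and coreceptor genes and the 22 kinases, adaptors and phosphatases were set side by side. At day 6, 5 of the 11 were higher and 0 lower, with a median difference of 0.32, beside 45.4% of all genes called and 60.1% of those above the dim level, and 6 of the 11 had an unadjusted p under 0.05, all of them higher. Of the 22, 13 were higher and 3 lower, 72.7% called, with a median of 0.48, where 18.5% of all genes were higher and 26.9% lower. At day 3, 0 of the 11 and 5 of the 22 (22.7%) were called, where 16.3% of all genes were. Of the 11, 3 had an unadjusted p under 0.05 then. The classes are made of genes and not of samples, so the difference between them was not tested.

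Each gene's other probe sets gave a second reading of the same RNA. At day 6, 25 members had 56 further probe sets, and 40.2% of the 41091 probe sets with 1 symbol were called. Of the 56, 27 were called in the direction of a called brightest probe set and 1, of LAT2, in the opposite direction. Another 12 were not called where the brightest was, 4 were called where it was not, and 12 were called on neither. The 4 were of GRB2 at 0.51, MALT1 at 0.68, FYN at 0.32 and CD37 at -0.31. PRKCB had 5 further probe sets: 3 were called higher, at 3.08, 1.97 and 0.68, and the other 2, with means of 3.67 and 3.62, read -0.01 and 0.04.

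**Figure D4:**
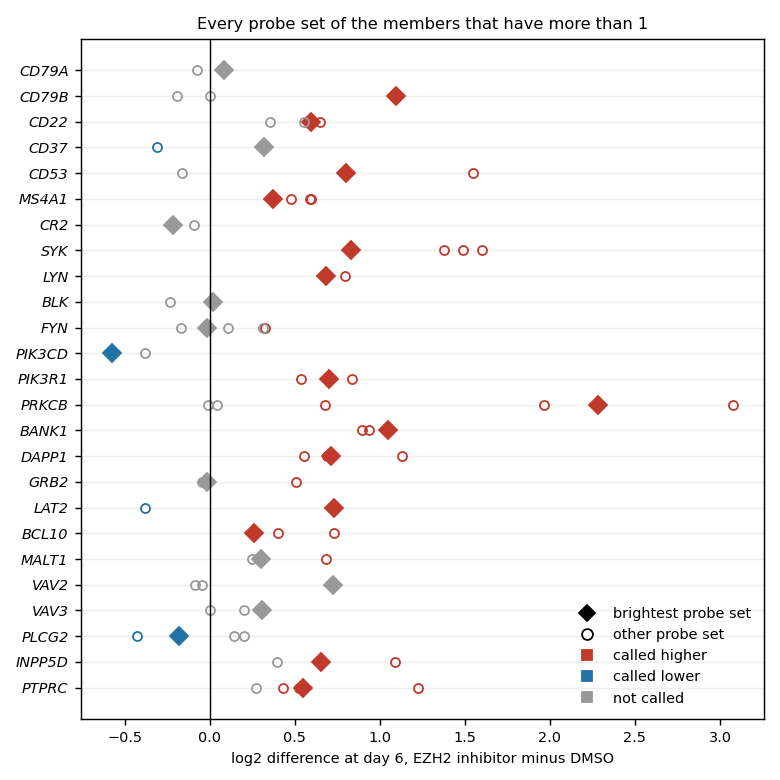
Log2 difference at day 6 for every probe set of the 25 members that have more than 1, with the brightest as a filled diamond and the others as open circles, in red where called higher, blue where called lower and grey where not called. All 4 SYK probe sets lie above 0.8, while the 2 LAT2 probe sets lie on opposite sides of 0.

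The growth of the effect was tested as a difference of differences. Between day 1 and day 6 the effect rose for 12 members and fell for PTPN6 and PIK3CD, 14 of 33 where 26.7% of all genes were called, 12.3% upward and 14.4% downward. Between day 3 and day 6 it rose for 9 members and fell for 0, 9 of 33 where 12.5% of all genes were called, 5.98% upward and 6.53% downward. One member, CR2, had an unadjusted p under 0.05 for a fall between day 3 and day 6. The 9 were BANK1, CD53, CD72, CD79B, INPP5D, LYN, PRKCB, SYK and VAV1, and without the arrays numbered 2 the count was 3, BANK1, CD72 and SYK. The CD79B call between day 3 and day 6 was also lost with the mean of its probe sets (0.27, limma adjusted p = 0.13). The calls of PTPN6 and PIK3CD between day 1 and day 6 were lost without the arrays numbered 1 (limma adjusted p = 0.058 and 0.097), and that of PIK3CD also without those numbered 2 (limma adjusted p = 0.099). With the replicate block, BLNK, CD22, DAPP1, LAT2 and PIK3R1 were called as well between day 3 and day 6, at 0.31 to 0.73, 14 of 33 where the block gave 9.02% of all genes upward, and BCL10, BTK and CD22 between day 1 and day 6, at 0.24 to 0.54, 15 of 33 where it gave 15% of all genes upward.

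Each arm was also followed on its own. Within the inhibitor arm, day 6 against day 1, 19 members were higher and 2 lower, where 41% of all genes were called, 16.9% higher and 24% lower. CD72 was highest at 2.79, followed by PRKCB at 1.94 and CD53 at 1.55. Within the DMSO arm CD53 was called, as given above. With the replicate block the inhibitor arm gained CD180 at 0.36 (limma adjusted p = 0.0023), 20 higher where the block gave 18.8% of all genes. With the block the DMSO arm had 5 members higher, where it gave 0.703% of all genes, CD53, CD22 at 0.66 (limma adjusted p = 0.0046), BLNK, MS4A1 at 0.48 (limma adjusted p = 0.036) and PTPN6. The CD22, BLNK, MS4A1 and CD53 differences at day 6 are therefore gaps between 2 arms that both read higher at day 6 than at day 1. These within-arm comparisons share arrays with the comparisons between arms.

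Other genes of the pathway were counted from lists drawn up by role, with earlier results of these data known. Counted once each, 166 further genes were measured, of which 66 were higher and 43 lower at day 6. That was 65.7%, against 45.4% of all genes and 60.1% of those above the dim level. The median difference of the 166 was 0.08. Genes named below were called at day 6, and their values are log2 differences of that day unless another day is given. For the 166, the counts at day 3 were 37 and 12, 29.5% against 16.3% of all genes. At day 2 they were 17 and 2, 11.4% against 4.39%, and at day 1 4 and 0, 2.41% against 0.485%. For the lists below, the shares of all genes called higher and lower were 0.475% and 0.0101% at day 1 and 3.57% and 0.824% at day 2. At day 3 these shares were 8.64% and 7.65%. At day 6 they were 18.5% and 26.9%, or 26.3% and 33.8% above the dim level.

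Immunoglobulin chains, the antigen-binding part of the receptor, were split. Of 9 measured, 2 were higher and 4 lower at day 6, where 18.5% of all genes were higher and 26.9% lower. IGLC1, a lambda constant region, was 2.38 and IGKC, the kappa constant region, 0.87. The surrogate light chain gene IGLL1 was -1.70, and the heavy chain genes IGHM, IGHD and IGHG1 were -0.35, -0.35 and -0.30. Probe sets for these genes can read close copies, so the values are uncertain. At days 1 and 2 none of the 9 was called by limma, where 1 and 0 had an unadjusted p under 0.05, and at day 3 IGLL1 was called lower.

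Among 19 other coreceptors and inhibitory receptors, 8 were higher and 3 lower at day 6, beside 18.5% and 26.9% of all genes. PECAM1, an inhibitory adhesion receptor, was 4.20 from a dim 5.08 in DMSO, CD40 1.80, IFITM1, an interferon-induced membrane protein, 1.69, and CD74 0.79. The counts of higher and lower genes were 0 and 0 at day 1, where none of the 19 had an unadjusted p under 0.05, 3 and 0 at day 2, and 5 and 0 at day 3. Among 42 other proximal kinases, phosphatases and adaptors, 16 were higher and 9 lower at day 6. Of all genes 45.4% were called then, and 60.1% of those above the dim level. GAB2, a docking protein, was 1.81, SLA, an adaptor that dampens receptor signalling, 1.16, WIPF1 1.08 and DOCK8 1.03. The counts of these 42 were 1 and 0 at day 1, 2 and 0 at day 2, and 8 and 0 at day 3.

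In the calcium and NFAT branch 9 of 19 were higher and 2 lower at day 6, beside 18.5% and 26.9% of all genes. RCAN3, a calcineurin regulator, was 1.76 and ITPR1, a calcium channel of the endoplasmic reticulum, 1.57. PPP3CA, the calcineurin catalytic subunit, was 1.499 and ORAI3, a calcium channel of the plasma membrane, 1.33. RCAN3 and ITPR1 were also called at day 1, at 0.94 and 0.74, the 2 genes of this branch called then. Counts were 4 and 0 at day 2 and 7 and 2 at day 3.

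In the PI3 kinase and AKT branch 9 of 18 were higher and 5 lower at day 6, beside 18.5% and 26.9% of all genes. INPP4A, a lipid phosphatase, was 1.72, the transcription factors FOXO3 and FOXO1 were 1.55 and 1.51, and PIK3R3, a regulatory subunit, was 1.21. None was called at day 1, when 4 had an unadjusted p under 0.05, and counts were 4 and 0 at day 2 and 5 and 0 at day 3. In the diacylglycerol, RAS and ERK branch 7 of 17 were higher and 7 lower, beside the same shares of all genes. The exchange factor RASGRP3 was 1.61, PRKCA, another protein kinase C, 1.58, SOS1 0.60 and PRKCD, the delta form, -1.16. PRKCA was called at day 1 at 0.80, and counts were 1 and 0 at day 2 and 3 and 2 at day 3.

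In the NF-kB branch 11 of 23 were higher and 2 lower at day 6, beside 18.5% and 26.9% of all genes. CYLD, a deubiquitinase that restrains the pathway, was 1.61, the subunit gene REL 1.06, the kinase gene IKBKB 0.95 and TNFAIP3, a feedback inhibitor, 0.86 from a dim 5.02 in DMSO. None was called at day 1, when 1 had an unadjusted p under 0.05, and counts were 2 and 0 at day 2 and 6 and 2 at day 3.

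Of 19 measured genes that receptor stimulation induces, 4 were higher and 11 lower than in DMSO at day 6, with a median of -0.59, where 26.9% of all genes were lower. Within the inhibitor arm from day 1 to day 6 the list had 6 higher and 6 lower, with a median of -0.03, while within the DMSO arm it had 1 higher and 0 lower, with a median of 0.32 and 9 genes at an unadjusted p under 0.05. Over the arrays, 6 of the 19 were dim. The cytokine genes LTA and TNF were -2.83 and -2.40, and BCL2A1, a survival factor, and DUSP5, a phosphatase of ERK, were 1.71 and 1.68, BCL2A1 from 3.16 in DMSO to 4.87, both in the dim range, so the size of its difference is uncertain. At day 1 none was called, when 2 had an unadjusted p under 0.05, and counts were 1 and 2 at day 2 and 3 and 5 at day 3.

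**Figure D5:**
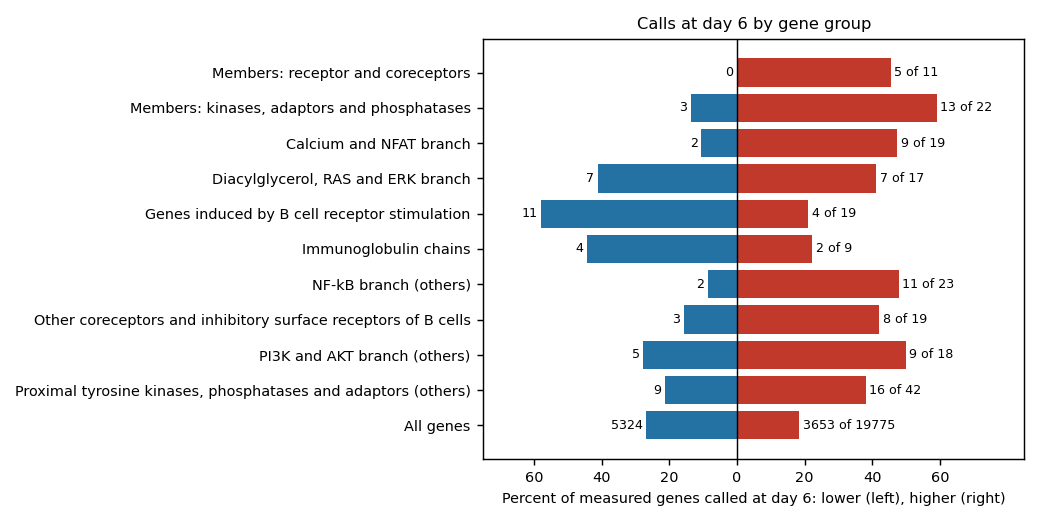
Percent of measured genes called at day 6 in the 2 classes of members, in 8 lists of other genes of the pathway and over all genes, lower to the left and higher to the right, with the counts beside the bars. The members' bars reach 5 of 11 and 13 of 22 higher, and the list of genes induced by the receptor is the one with 11 lower.

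The arrays were alike, with medians from 4.96 to 5.03 and correlations within groups from 0.995 to 0.998. EZH2, the target of the inhibitor, was -0.64 at day 6 (limma adjusted p = 8.9e-05) and not called before. The 9 B lineage markers outside the members were all above the dim level, with array means from 10.69 to 10.99. At day 6 VPREB3 was -0.71 and TCF3 -0.32, FCRLA 0.40 and POU2AF1 0.27. T and NK markers averaged 5.51 to 5.61 in DMSO and 5.30 to 5.41 with the inhibitor at day 6, 8 of 15 dim. Gene means in this list ran from 2.44 to 10.95 over the arrays, so not all were low. CD247 was -1.25 from a level of 10.14 in DMSO, CD3D -0.58, CD8B -0.42 and PRF1 0.52. All 15 myeloid markers were dim over the arrays, and averaged 3.99 to 4.04 in DMSO and 3.97 to 4.03 with the inhibitor at day 6. LYZ was 2.52, and CD14, FCN1, ITGAM, ELANE, ITGAX and CSF1R were -0.42 to -0.23. Stromal and epithelial markers averaged 4.95 to 5.01 in DMSO and 4.89 to 4.94 with the inhibitor at day 6, 9 of 15 dim. Gene means in that list ran from 2.74 to 12.95. DCN was bright, at 12.80 in DMSO and 13.37 with the inhibitor, a difference of 0.57. KRT18 was 0.20, PDGFRB -0.37 and EPCAM -0.31. What part these markers have in the members' values was not tested. At day 6 the median of all genes lay 0.11 below 0. Once that shift was removed from each array, 55.8% of the called genes were higher at day 6 and 63.3% at day 3, where 40.7% and 53.1% were higher as deposited.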

How the data were processed

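Expression was measured on Affymetrix U133 Plus 2 arrays from biotin-labelled RNA of 24 cultures. The deposited values are log2 expression per probe set after RMA, which corrects background, normalizes and summarises probes, with R 2.10.1, as the submitters' processing notes name them; the log base was inferred from their range, 1.72 to 14.33. No alignment or read depth applies to arrays, so the number of arrays limits the precision.

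Of 54613 probe sets, 41091 had 1 gene symbol, 1801 several and 11721 none in the platform annotation. The brightest probe set per gene over the 24 arrays gave 19775 genes. limma 3.58.1 in R 4.3.3 fitted 1 coefficient for each of the 8 groups with eBayes (16 residual and 5.22 prior degrees of freedom), Benjamini-Hochberg over all genes, and the scripts were tested on simulated data. The group of each array came from its label, and no array was left out. All 34 members are reported. Of each list, up to 4 genes called at day 6 with the largest absolute difference are named, and every called marker; IGHM and IGHG1 were added after their values were seen. The members and lists were chosen with earlier results of these data known. PIK3AP1 was not analysed here.

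The numbers in the labels pair the samples at days 1, 3 and 6: residuals of same-numbered arrays correlated by at least 0.19 in each pair of these days, and by 0.04 in 1 pair at day 2. Alternatives changed the scaling, probe set, dim filter, groups fitted, replicate block, array weights, prior and arrays left out. Motif searches used RefSeq promoter windows on GRCh38.p14.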

Additional observations from a re-analysis of the deposited data

Results flagged for a closer look

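For 14 members the inhibitor effect at day 6 differed from that at day 1 by limma's test of the difference itself. The effect grew for CD72 by 2.56, PRKCB by 1.79, CD79B by 1.12, BANK1 by 1.02, SYK by 0.83, LYN by 0.81, CD53 by 0.79, BLNK and INPP5D by 0.77 each, PIK3R1 by 0.73, DAPP1 by 0.57 and VAV1 by 0.46 on the log2 scale. It turned further down for PTPN6, at -0.95, and for PIK3CD, at -0.52. Without the arrays numbered 1, 2 or 3 in turn, calls were lost for DAPP1 (1 and 2), VAV1 (1), PIK3CD (1 and 2), PTPN6 (1) and BLNK (3).

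For 9 members the effect at day 6 also differed from that at day 3. The differences were 2.07 for CD72, 1.17 for PRKCB, 0.95 for CD53, 0.84 for CD79B, 0.83 for BANK1, 0.76 for LYN, 0.75 for SYK, 0.59 for INPP5D and 0.46 for VAV1. Without the arrays numbered 2, CD53, CD79B, INPP5D, LYN, PRKCB and VAV1 lost that call, and INPP5D and VAV1 also lost it without those numbered 1. CD79B lost it with the mean of its probe sets as well (0.27, limma adjusted p = 0.13).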

How the results depend on the processing

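At day 6, 16 to 23 members were called higher and 2 to 4 lower over the alternatives run, against 18 and 3. With plain probe sets preferred, LAT2 reversed at -0.38 (limma adjusted p = 0.018), because another probe set was read. For the same reason GRB2, not called on its brightest probe set, was called higher at 0.51 (limma adjusted p = 0.00015). CD79B likewise lost its call, at 0.003 (limma adjusted p = 0.99). PLCG2 also lost its call after a second quantile normalization, with the mean of its probe sets and in the fit of the compared groups alone. The replicate block is given in the report except at day 2, where 1 pair of same-numbered arrays correlated by 0.04 and the others by 0.36 and 0.43. There it gave 3 higher and 3 lower members, against 5.69% and 2.64% of all genes, and added CD37, LAT2, PIK3CD (limma adjusted p = 0.017), PTPN6 (limma adjusted p = 0.0013) and VAV1, and within each day it gave 2 higher at day 1, 5 higher and 4 lower at day 2 and 6 higher at day 3. In the fit with 1 replicate block over the days it gave 2 higher at day 1, 4 at day 3, 5 in the DMSO arm and 14 for day 6 against day 3, and ended no member's call. The day 3 calls of PIK3CD and BLK were lost in the fit of the compared groups alone (limma adjusted p = 0.067 and 0.12), those of PIK3R1 and BLK with the mean of probe sets (0.25, limma adjusted p = 0.10, and -0.14, limma adjusted p = 0.25). At day 6 a second quantile normalization and the removal of the median shift each called CD37, CD81 and MALT1, and the compared groups alone VAV2. Day 2 counts of higher members were 0 with the mean or plain probe sets and 2 with array weights or the compared groups alone, and counts of lower ones 3 with array weights and 1 without dim genes. At day 3, plain probe sets gave 4 higher and the compared groups alone 1 lower. The DMSO arm had 2 higher with the mean of probe sets or without dim genes. With replicates left out, counts ranged from 0 to 1 higher at day 1, and from 0 to 1 higher and 0 to 1 lower at day 2. They were 1 to 3 lower at day 3 and 0 to 2 lower for day 6 against day 1. With a number left out of every group, 3 to 9 were higher for day 6 against day 3. The DMSO arm then had 0 higher each time, and the inhibitor arm 1 to 2 lower. Where no other reason is given, the cause was not tested.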

Other observations

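Some members kept the same order among the replicate numbers in every group. The array numbered 3 read lowest in 8 of 8 groups for VAV2, VAV3 and PTPN6, and the array numbered 2 read highest in 8 of 8 for SYK. For PRKCB, BANK1, MALT1 and GRB2 the array numbered 3 read highest in 7 of 8. Of the 24 arrays, 23 correlated best, after the group means were removed, with an array of their own number.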
